A study of Mus musculus with 13 samples.

Results

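Neuromodulator G protein-coupled receptors carry slow signals between cells, and their genes were followed here across H3K27me3 and total H3 ChIP-seq libraries of mouse embryonic stem cells (ESCs). The genes were chosen by symbol, as adrenergic, dopamine, serotonin, muscarinic, metabotropic glutamate, neuropeptide Y, somatostatin, opioid, galanin, neurotensin, tachykinin, histamine, cannabinoid, melanocortin and neuropeptide B/W receptors. The choice gave 72 of 55232 genes, 137 of 77489 promoter rows, and 86 of 57909 regions that overlap those rows by at least 1 bp. The rule for serotonin receptors reached neither Htr4 nor the ion channel subunits of the Htr3 family. All 13 libraries came from a male CAST/B6 line with a recombination cassette at Rosa26, after 3 days of doxycycline and fixation in 0.6% formaldehyde. Double knockout (DKO) cells lacked SAFB and SAFB2, and WT cells carried both. There were 4 DKO and 5 WT libraries for H3K27me3, and 2 DKO and 2 WT libraries for total H3. The DKO group is 2 clones of unequal weight: clone 4 gave H3K27me3 replicate 1, and clone 13 gave every other DKO library.

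H3K27me3, a histone mark set by Polycomb repressive complex 2, covers promoters of many developmental and neural genes that embryonic stem cells keep silent. The receptors described here span the membrane as 7 helices and act through G proteins: those of the Gi class inhibit adenylyl cyclase, those of the Gs class stimulate it, and those of the Gq class activate phospholipase C. In neurons they set excitability and transmitter release over seconds to minutes.

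The promoter windows of the gene with the highest counts, of the gene with the most stable difference between genotypes, and of a muscarinic pair with and without the mark show the kinds of sequence at these starts. Htr2b was added as a serotonin receptor gene without the mark. Each window holds 300 bases from RefSeq (GRCm38.p6), 250 before and 50 after a start site, with every CG in capitals. These genes were chosen for display after their values were seen.
Adrb1, chr19:56721867-56722166, plus strand: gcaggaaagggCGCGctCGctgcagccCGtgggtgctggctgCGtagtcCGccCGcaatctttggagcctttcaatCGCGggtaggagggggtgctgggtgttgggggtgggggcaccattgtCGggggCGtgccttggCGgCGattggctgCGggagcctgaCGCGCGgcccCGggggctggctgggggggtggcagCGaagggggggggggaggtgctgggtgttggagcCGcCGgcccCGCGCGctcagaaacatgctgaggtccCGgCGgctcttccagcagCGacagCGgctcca
Grm8, chr6:28135097-28135396, minus strand: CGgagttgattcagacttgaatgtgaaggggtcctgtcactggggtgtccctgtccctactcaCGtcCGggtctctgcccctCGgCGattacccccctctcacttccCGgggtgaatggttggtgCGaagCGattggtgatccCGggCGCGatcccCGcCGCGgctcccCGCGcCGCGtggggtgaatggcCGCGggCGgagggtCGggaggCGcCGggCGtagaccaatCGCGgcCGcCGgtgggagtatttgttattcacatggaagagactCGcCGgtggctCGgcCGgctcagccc
Chrm3, chr13:10360754-10361053, minus strand: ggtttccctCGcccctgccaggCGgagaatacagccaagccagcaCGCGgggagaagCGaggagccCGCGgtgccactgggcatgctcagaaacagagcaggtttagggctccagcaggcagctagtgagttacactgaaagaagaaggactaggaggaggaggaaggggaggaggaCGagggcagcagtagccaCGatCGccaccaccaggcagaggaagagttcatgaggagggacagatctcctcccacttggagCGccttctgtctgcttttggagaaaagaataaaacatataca
Chrm5, chr2:112480768-112481067, minus strand: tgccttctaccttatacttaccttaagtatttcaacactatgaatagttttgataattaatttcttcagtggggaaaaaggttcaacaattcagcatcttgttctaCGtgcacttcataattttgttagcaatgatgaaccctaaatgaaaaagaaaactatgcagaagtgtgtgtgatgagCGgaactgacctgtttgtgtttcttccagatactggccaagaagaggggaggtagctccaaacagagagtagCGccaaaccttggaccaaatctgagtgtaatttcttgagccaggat
Htr2b, chr1:86111931-86112230, minus strand: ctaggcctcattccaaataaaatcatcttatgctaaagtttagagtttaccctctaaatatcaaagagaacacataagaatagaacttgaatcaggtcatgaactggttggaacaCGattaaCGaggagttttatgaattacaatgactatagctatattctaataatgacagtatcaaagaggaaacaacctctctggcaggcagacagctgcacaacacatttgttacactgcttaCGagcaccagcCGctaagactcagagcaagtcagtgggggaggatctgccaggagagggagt
The letters CG occurred 28 times in the Adrb1 window, 33 times in the Grm8 window and 11 times in the Chrm3 window, all 3 inside an H3K27me3 region. They occurred 3 times in the Chrm5 window and 4 times in the Htr2b window, neither of which touched a region. CG reads the same on both strands and cannot overlap itself. Over all 32851 windows of the same length the median was 7, 94.6% held at least 1, 43.5% held at least 10 and 14.2% held at least 28. Htr1a shows that a marked start need not be rich in CG, with 7 in its window. The windows of Galr2 and Grm6 held 4 each and also touched a region. So did 2 more windows of Grm8, with 10 and 2. A window was at hand for 52 of the 72 genes (72.2%), under the 80% needed, so a comparison of CG content over the group is void.

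Depth was modest. The promoter rows held 798466 to 1427771 counts a library, and the regions held 1818647 to 3134799 counts in H3K27me3 libraries and 525847 to 736566 in total H3 libraries. Levels are given as CPM, each count scaled to the size of its library after TMM. The labels do not state separate cultures for the replicates, so each p-value reflects spread among libraries that may be technical, and the WT libraries have 3 different name stems. The count columns are tagged b6, with no statement on whether CAST reads were counted too. Fewer marked cells or alleles and less of the mark per cell cannot be told apart. The ChIP counts cannot check the deletion of Safb and Safb2. H3K27me3 over 8 pluripotency genes, which these cells use, summed to 68.5 to 80.8 CPM in DKO libraries and 55.5 to 74.1 CPM in WT libraries, with a region at 2 of the 8, Nanog (0 counts in its promoter row) and Esrrb. The long region of Esrrb, a pluripotency transcription factor, was itself lower in DKO, at 193 ± 15.4 CPM in DKO (SD, n = 4) and 236 ± 19.8 CPM in WT libraries (SD, n = 5). Its log2 fold change was -0.29, at an adjusted p of 0.0106 by edgeR. The promoter row of Esrrb, with 38.3 CPM in DKO and 35.9 CPM in WT libraries, had a log2 fold change of 0.14 and an adjusted p of 0.866 by edgeR. The sums over 6 fibroblast genes were 188 to 223 CPM in DKO and 153 to 211 CPM in WT libraries, and over 6 neuronal genes 63.3 to 83.3 CPM in DKO and 60.4 to 81.2 CPM in WT libraries. A region lay at 3 of these 6 fibroblast genes and at 5 of these 6 neuronal genes. Of 6 housekeeping genes 1 had a region, B2m, and their sums were 54.2 to 87.5 CPM in DKO and 66.1 to 87.9 CPM in WT libraries. Most of that sum was B2m, which averaged 59.3 CPM in DKO and 68.6 CPM in WT libraries. H3K27me3 at a marker is not its expression, and a part of other cells in the results was not tested.

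Most receptor genes lay under the mark. A region overlapped a promoter row of 64 of the 72 genes (88.9%), against 21.5% of all genes and 35.7% of the 21276 genes that RefSeq lists as protein-coding. A region that the authors list as shared by both genotypes lay at 60 (83.3%), against 17.8% of all genes. By signalling class, a region lay at 36 of 41 Gi-coupled, 16 of 18 Gq-coupled and 12 of 13 Gs-coupled receptor genes. All 9 adrenergic, all 8 metabotropic glutamate, all 5 somatostatin and all 3 galanin receptor genes had a region, as did 10 of 11 serotonin and 4 of 5 dopamine receptor genes.

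The 8 genes without a region were Chrm5, Cnr2, Drd3, Hrh4, Htr2b, Mc2r, Npy6r and Oprl1. Several of them act mainly outside the brain: Cnr2 and Hrh4 are receptors of immune cells, Mc2r is the adrenal receptor for ACTH, and Htr2b acts in heart and gut. This is not particular to them, since Adrb1 of the heart and Adra1a of blood vessels have a region. H3K27me3 promoter levels of the 8 genes stayed low in both genotypes. Chrm5, a muscarinic receptor of midbrain dopamine neurons, had 13.1, 12.2, 14.5 and 16.7 CPM in DKO libraries and 19.5, 17.9, 13.4, 16.7 and 12.3 CPM in WT libraries. Drd3, a Gi-coupled dopamine receptor, had 18.1, 16.6, 17.5 and 20 CPM in DKO libraries and 16.6, 15.1, 14.7, 21.5 and 15.4 CPM in WT libraries. The genotypes overlapped at both genes. Htr2b averaged 7.89 ± 2.51 CPM in DKO (SD, n = 4) and 10.5 ± 7.55 CPM in WT libraries (SD, n = 5). The rows of Hrh4 and Oprl1 had only 46 and 109 bases free of another row, and reads over more than 1 row were not counted, so their values near 0 do not measure the mark.

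Among marked genes, the promoter level spanned a wide range. Adrb1, the cardiac beta-adrenergic receptor, was highest, with 298, 323, 240 and 278 CPM in DKO libraries and 350, 304, 321, 265 and 286 CPM in WT libraries. Grm8, a presynaptic glutamate autoreceptor, averaged 202 ± 24.8 CPM in DKO (SD, n = 4) and 247 ± 18.3 CPM in WT libraries (SD, n = 5). Hrh1, the Gq-coupled histamine receptor of wakefulness and allergy, averaged 183 ± 8.41 CPM in DKO and 221 ± 29.7 CPM in WT libraries. These 3 rows, like those of Galr1, Chrm3, Drd4, Oprd1, Npbwr1, Htr1a and Sstr4, are free of overlap, so their levels can be compared over equal lengths. Galr1 averaged 179 ± 27 CPM in DKO and 173 ± 13.3 CPM in WT libraries, and Drd4 averaged 153 ± 16.4 CPM in DKO and 156 ± 30.9 CPM in WT libraries. Oprd1, the delta opioid receptor, averaged 151 ± 11.6 CPM in DKO and 145 ± 23.2 CPM in WT libraries, and Npbwr1 138 ± 10.8 CPM in DKO and 149 ± 12.7 CPM in WT libraries. Chrm3 averaged 141 ± 14.8 CPM in DKO, below Drd4 and Oprd1 there, and 179 ± 18 CPM in WT libraries, above Galr1 there. Among the highest rows of other families, Sstr4 averaged 112 ± 16 CPM in DKO and 121 ± 9.39 CPM in WT libraries. Mc3r, a hypothalamic melanocortin receptor of energy balance, had 89.5 ± 2.83 CPM in DKO and 93.7 ± 11.4 CPM in WT libraries. Tacr3, the neurokinin B receptor, had 63.3 ± 5.17 CPM in DKO and 78.2 ± 25.9 CPM in WT libraries, and Npy4r, the pancreatic polypeptide receptor, 41.8 ± 7.98 CPM in DKO and 41.2 ± 9.32 CPM in WT libraries. The highest neurotensin receptor row, Ntsr1, at 14.7 ± 1.17 CPM in DKO and 13.1 ± 3.51 CPM in WT libraries, had only 251 bases free of another row.

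**Figure D1:**
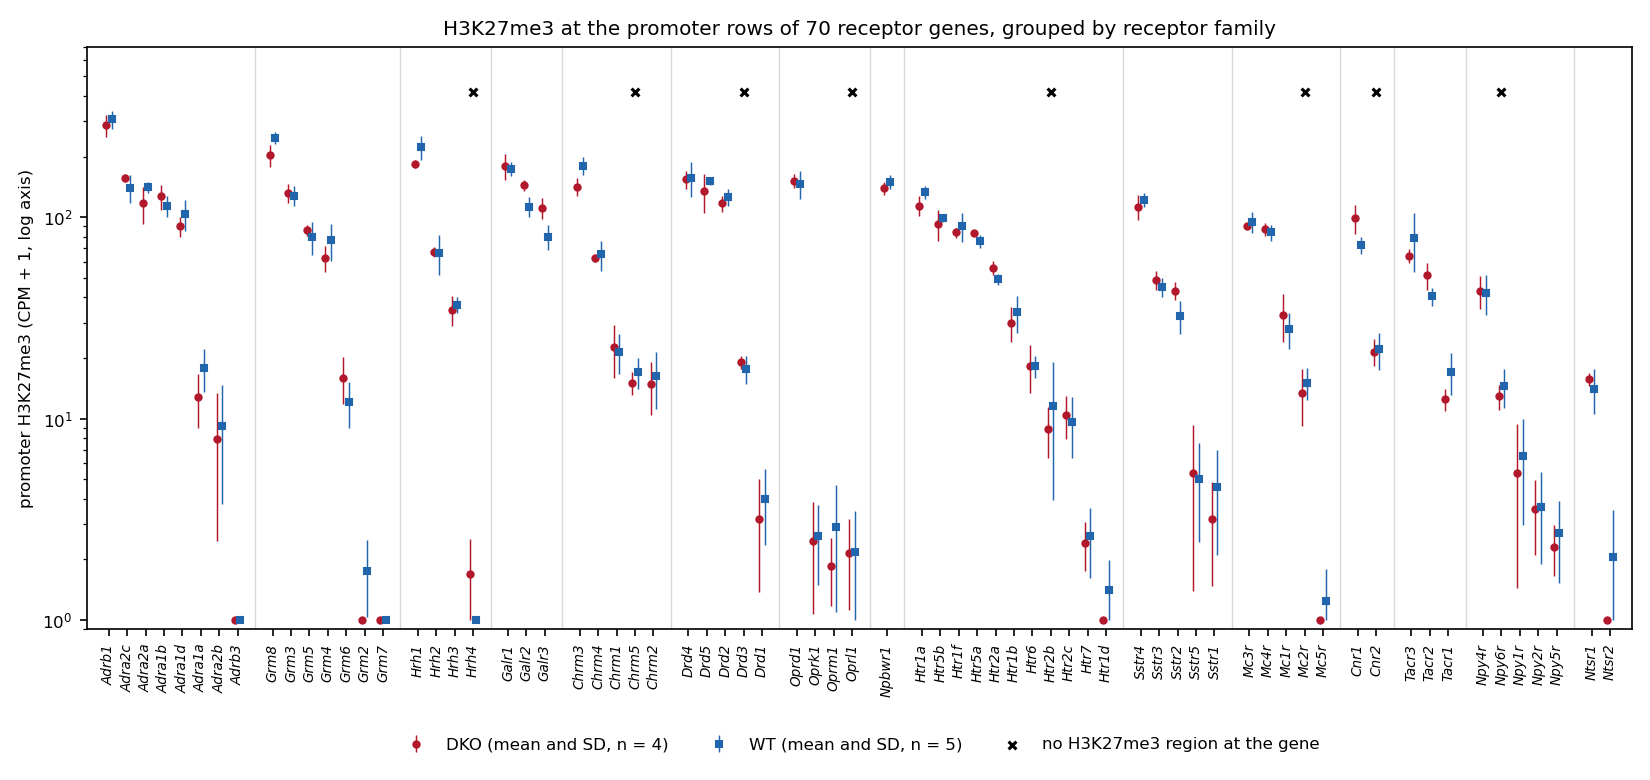
H3K27me3 at the promoter row of 70 of the 72 receptor genes, with families separated by grey lines, as CPM plus 1 on a log axis. Points are means with SD of 4 DKO (red) and 5 WT (blue) libraries, and crosses mark the 8 genes without a region; Adrb1 is highest, and rows near 0 such as Adrb3, Grm2 and Grm7 belong to genes that do have a region.

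The regions show the size of these Polycomb domains, since they are not split by neighbouring rows. Shared regions of receptor genes had a median length of 4196 bp, against 1334 bp for all 28174 shared regions. Grm4, a presynaptic Gi-coupled glutamate receptor, had the longest, 20464 bp at chr17:27502254-27522717, with 487, 499, 448 and 445 CPM in DKO libraries and 558, 559, 546, 449 and 444 CPM in WT libraries. The regions of Grm8 (11028 bp), Hrh3 (10050 bp), Adrb1 (9873 bp) and Grm7 (8587 bp) came next. Hrh3, the histamine autoreceptor, averaged 249 ± 23.3 CPM in DKO (SD, n = 4) and 232 ± 6.3 CPM in WT libraries (SD, n = 5). Grm7 had 0 counts in its promoter row but a long region, which shows how little that row measures. Of the 86 regions, 18 also touched a promoter row of another gene, such as Tubb3 in the region of Mc1r, the pigment cell melanocortin receptor. Chromosome 6 holds 41.5% of all regions, against 9 of the 86 receptor regions. Shares and medians over all regions therefore weigh that chromosome more than the receptor values do.

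Of the 86 regions, 74 were listed as shared, 8 as DKO-specific and 4 as WT-specific. The genotype-specific ones were short and weak, 267 to 1051 bp in the DKO-specific and 258 to 601 bp in the WT-specific list. Oprk1 and Oprm1, the kappa and mu opioid receptor genes, had only WT-specific regions. Tacr2 and Mc5r had only DKO-specific ones. The counts did not separate the genotypes there. The 2 Oprm1 regions averaged 4.82 and 4.14 CPM in DKO and 5.52 and 4.39 CPM in WT libraries, and the longer Tacr2 region 6.06 CPM in DKO and 4.06 CPM in WT libraries. None of the 7 that had counts enough for the test of DKO against WT was called by edgeR, and a region listed in 1 genotype alone is set lower in the other by that choice.

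Whether loss of SAFB and SAFB2 altered the mark at these genes was asked first at the promoter rows. edgeR's quasi-likelihood test with Benjamini-Hochberg adjustment over all 32647 rows called 0 of the 53 receptor rows tested at an adjusted p under 0.05, where 0.628% of all rows were called, 0.438% higher and 0.19% lower. The other 19 genes had too few counts in their row. An unadjusted p under 0.05 was found at 9 of the 53 rows, 5 higher and 4 lower in DKO, where 10.2% of all rows had one. DESeq2 called 1 of the 39 receptor rows it gave an adjusted p, against 2.03% of all such rows. The median log2 fold change was -0.06 over the receptor rows and -0.01 over all rows.

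Galr3, a Gi-coupled galanin receptor, had the highest fold change. It had 97.4, 112, 127 and 103 CPM in DKO libraries, against 84.7, 90.7, 86.7, 66.9 and 66.3 CPM in WT libraries, a log2 fold change of 0.50 ± 0.14 (SE) with an adjusted p of 0.0504 by edgeR. Every DKO library was above every WT library. Without WT replicate 1 or without DKO replicate 1 this row was called, at log2 fold changes of 0.54 and 0.56. Cnr1, the brain cannabinoid receptor, had 97.4, 119, 92.1 and 81.7 CPM in DKO libraries, against 78.9, 71.5, 72.1, 59.7 and 76.3 CPM in WT libraries, a log2 fold change of 0.44 ± 0.14 (SE) with an adjusted p of 0.144 by edgeR. These 2 of the 53 rows had all DKO above all WT libraries, as 1.74% of all tested rows did. The Cnr1 row has 1570 bases free of another row. The other promoter row of Cnr1 had a log2 fold change of 0.16 with an adjusted p of 0.8 by edgeR, and the genotypes overlapped there. Sstr2, Galr2 and Grm6 had log2 fold changes of 0.44, 0.36 and 0.46, and all 3 lie on chromosome 11, where tested rows had a median of 0.29.

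The lowest fold change was at Tacr1, the substance P receptor, with 11.5 ± 1.56 CPM in DKO (SD, n = 4) and 16.1 ± 4.05 CPM in WT libraries (SD, n = 5), a log2 fold change of -0.52. Its row has 312 bases free of other rows. Adra1a, a vascular alpha-adrenergic receptor, had 11.8 ± 3.79 CPM in DKO and 16.9 ± 4.38 CPM in WT libraries, a log2 fold change of -0.44, over 215 bases free of other rows. Chrm3, the Gq-coupled muscarinic receptor of glands and smooth muscle, had 131, 157, 126 and 150 CPM in DKO libraries, against 188, 195, 161, 194 and 159 CPM in WT libraries. It was the 1 receptor row with all DKO below all WT libraries, as 1.61% of all rows were, with a log2 fold change of -0.35 ± 0.12 (SE) and an adjusted p of 0.169 by edgeR. Tacr3 and Grm8 followed, with log2 fold changes of -0.30 and -0.29.

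The regions, with more counts each, gave calls. H3K27me3 was lower in DKO at 7 of 81 tested regions (8.64%) and higher at 0, where 1.88% of all tested regions were lower and 2.16% higher (edgeR's quasi-likelihood test, adjusted p under 0.05). All 7 were shared regions of at least 3000 bp, of which receptor genes have 50, so 14% of those were lower in DKO, against 7.23% of all 5490 such regions, of which 4.59% were higher. Over shared regions of any length the share lower in DKO was 9.46% at receptor genes and 1.82% in all. They belonged to Grm8, Chrm3, Htr1a, Adra2a, Adra1d, Grm7 and Ntsr2, which are 4 Gi-coupled and 3 Gq-coupled receptors. The median log2 fold change was -0.12 over the 50 receptor regions and -0.07 over all regions of that kind. Of the 81 regions, 21 had an unadjusted p under 0.05, as did 19.5% of all tested regions. Chromosome 6, with 41.5% of all regions, weighs heavily in these shares over all regions, and its tested regions had a median log2 fold change of -0.18.

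The region of Grm8 (chr6:28125053-28136080) had 225, 221, 193 and 210 CPM in DKO libraries, against 263, 284, 250, 274 and 259 CPM in WT libraries. No DKO library reached any WT library. The log2 fold change was -0.33 ± 0.07 (SE), with an adjusted p of 0.00195 by edgeR. The region of Chrm3 (chr13:10358227-10362978), which also touches the row of Gm26861, had 86.5, 92, 75.1 and 87.3 CPM in DKO libraries, against 117, 117, 95.8, 125 and 98.7 CPM in WT libraries. Its log2 fold change was -0.38 ± 0.10 (SE), with an adjusted p of 0.00827 by edgeR. Again the groups did not overlap.

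Htr1a, the Gi-coupled serotonin autoreceptor of raphe neurons, had a region at chr13:105442860-105448412 with 96.8, 103, 88.1 and 113 CPM in DKO libraries, against 146, 113, 132, 120 and 130 CPM in WT libraries. The log2 fold change was -0.36 ± 0.09 (SE), with an adjusted p of 0.00918 by edgeR. The highest DKO and the lowest WT library lay side by side. Adra2a, the Gi-coupled autoreceptor of noradrenergic neurons, had the densest mark of the group, 34.7 CPM per kb. Its region (chr19:54044598-54050352) had 191, 196, 148 and 178 CPM in DKO libraries, against 234, 216, 205, 221 and 208 CPM in WT libraries, a log2 fold change of -0.29 ± 0.08 (SE) with an adjusted p of 0.015 by edgeR.

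The other 3 calls were nearer the threshold. The region of Adra1d, a Gq-coupled alpha-adrenergic receptor, averaged 132 ± 7.97 CPM in DKO (SD, n = 4) and 161 ± 10 CPM in WT libraries (SD, n = 5), with a log2 fold change of -0.29 and an adjusted p of 0.0305 by edgeR, and its groups did not overlap. That of Grm7, a low-affinity presynaptic glutamate receptor, had 157, 123, 119 and 141 CPM in DKO libraries, against 153, 157, 172, 170 and 169 CPM in WT libraries, with a log2 fold change of -0.28 and an adjusted p of 0.0316 by edgeR. DKO replicate 1, the clone 4 library, lay among the WT libraries there. That of Ntsr2, a neurotensin receptor, had 83.9, 77.7, 62.1 and 71.3 CPM in DKO libraries, against 114, 89, 94.7, 78 and 88.6 CPM in WT libraries, with a log2 fold change of -0.34 and an adjusted p of 0.0382 by edgeR. DKO replicate 1 was again above the lowest WT library. DKO replicate 3 was the lowest of the 9 libraries at all 7 regions.

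**Figure D2:**
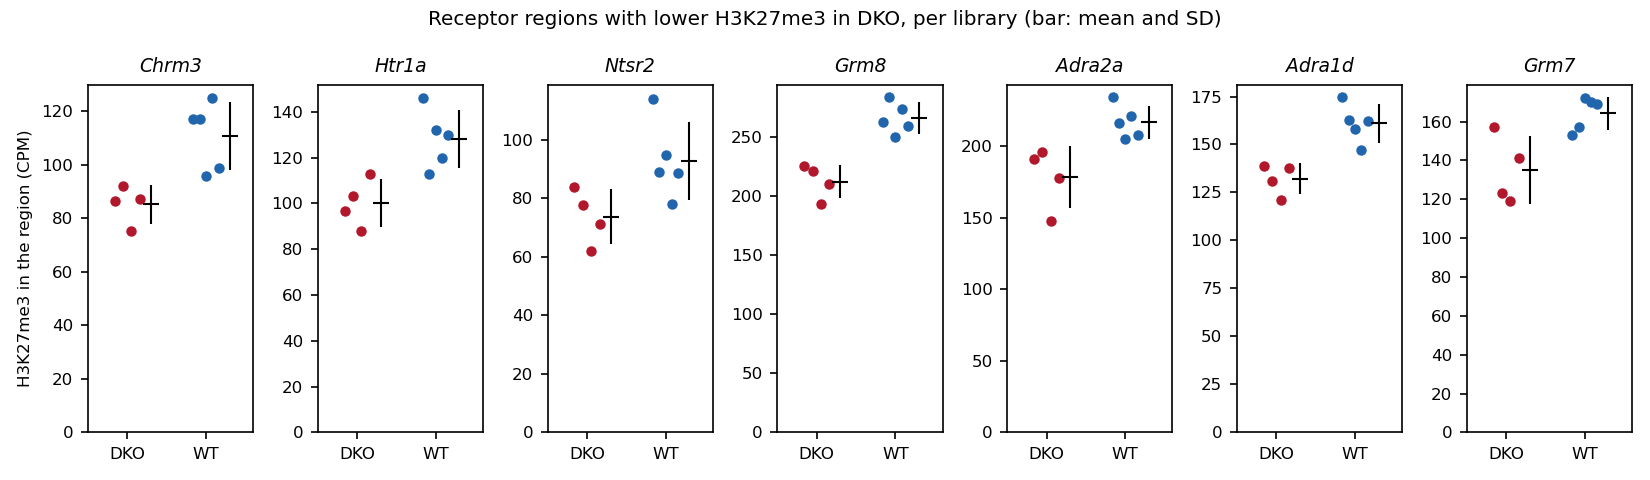
H3K27me3 in CPM per library at the 7 receptor regions that were lower in DKO, each on its own axis from 0, with 4 DKO libraries (red) left of 5 WT libraries (blue) and mean and SD in black. The groups do not overlap at Chrm3, Htr1a, Grm8, Adra2a and Adra1d, and do at Ntsr2 and Grm7.

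All 7 had lower H3K27me3 in DKO under each of 20 other settings, but the calls depended on the libraries. Grm8 kept its call in 19 of 20 settings, Chrm3 and Htr1a in 17, Adra2a in 16, Adra1d in 10, Grm7 in 9 and Ntsr2 in 7. Leaving out DKO replicate 3 left 1 region called, Grm8, and leaving out DKO replicate 2 or WT replicate 5 left 4. Calls over all regions also fell in these fits, to 623, 730 and 848 from 1630. Some names carry the word Old or New, which the labels leave unexplained. Within the 4 libraries so named 2 regions were called (Grm8 and Adra2a), and within the other 5 libraries 0 were. Over all regions 692 and 146 were called there. Scaling also bore on the balance: with library totals in place of TMM 3 regions were lower (Grm8, Chrm3 and Htr1a) and 4 were higher (Galr3, Grm6, Cnr1 and Galr2), and with an offset for the level 3 were lower and 5 higher. The balance moved over all 40418 tested regions too. There 758 were lower and 872 higher with TMM, 460 and 1418 with library totals, and 453 and 912 with the level offset.

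Regions with the opposite sign did not pass. That of Galr3 had 75.8 ± 10.4 CPM in DKO (SD, n = 4) and 60.5 ± 8.91 CPM in WT libraries (SD, n = 5), with a log2 fold change of 0.33 and an adjusted p of 0.0616 by edgeR. Cnr1 had 136, 137, 124 and 138 CPM in its region in DKO libraries, against 113, 117, 109, 117 and 115 CPM in WT libraries, a log2 fold change of 0.22 ± 0.09 (SE) with an adjusted p of 0.129 by edgeR. Its groups did not overlap, nor did those of Galr2, and these were the 2 of 81 regions with all DKO above all WT libraries, as 3.36% of all regions were. The reverse order held at 8 regions, among them those of Grm8, Chrm3, Htr1a, Adra2a, Adra1d, Sstr1 and Htr7, as it did at 3.40% of all regions.

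**Figure D3:**
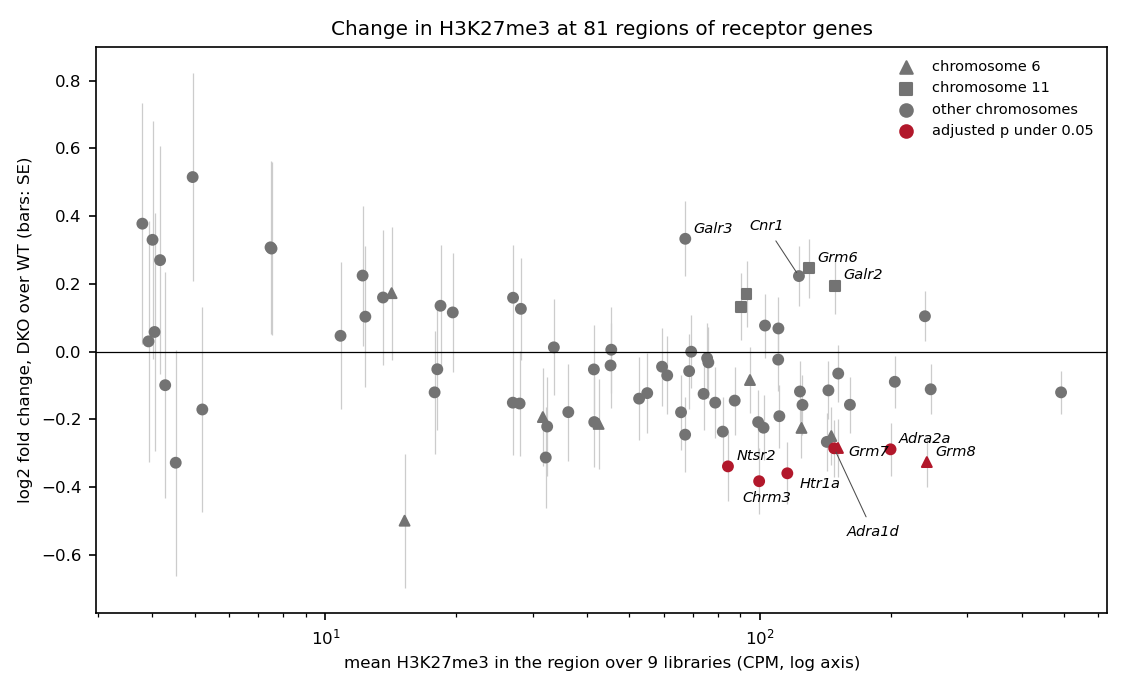
Log2 fold change of H3K27me3, DKO over WT, with its SE, against the mean level in CPM on a log axis, for the 81 tested regions; triangles are on chromosome 6, squares on chromosome 11, and red marks an adjusted p under 0.05. The 7 red regions lie below 0 at the level of Ntsr2 or above, and the 4 regions of chromosome 11 lie above 0.

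By family, the shared regions leaned differently, and these counts carry no test. A value below 0 was common: 58.4% of all tested shared regions had one, and 68.9% of those of receptor genes. All 5 shared regions of dopamine receptor genes were below 0, with a median log2 fold change of -0.16, as were all 4 of neuropeptide Y receptor genes (-0.20), all 3 of melanocortin receptor genes (-0.05) and 7 of 8 of metabotropic glutamate receptor genes (-0.08). Of the shared regions of somatostatin receptor genes 3 of 7 were below 0 (median 0.03), and of galanin receptor genes 2 of 4 (0.09). By signalling class the medians were -0.10 for Gi-coupled, -0.12 for Gq-coupled and -0.11 for Gs-coupled receptor genes, against -0.05 for all shared regions.

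Several receptor genes can be read only through their region, since their promoter row has almost no base of its own. Sstr1, a Gi-coupled somatostatin receptor, had 128, 132, 117 and 134 CPM in its region in DKO libraries, against 164, 161, 142, 139 and 162 CPM in WT libraries. The groups did not overlap, and the adjusted p of 0.0505 by edgeR, at a log2 fold change of -0.27, was just above the threshold. Drd1, the main Gs-coupled dopamine receptor of the striatum, had 51.8, 49.9, 45.4 and 52.2 CPM in its longer region (3028 bp) in DKO libraries, against 66.7, 63.6, 44.7, 46.4 and 53.4 CPM in WT libraries, which overlap. Htr7, a Gs-coupled serotonin receptor, had 93.8, 97.5, 96.7 and 83.8 CPM in DKO libraries, against 125, 107, 106, 99 and 106 CPM in WT libraries, with a log2 fold change of -0.22 and an adjusted p of 0.162 by edgeR. Here all DKO libraries were below all WT libraries. Npy5r, a receptor of feeding circuits, averaged 82.5 ± 6.04 CPM in DKO (SD, n = 4) and 91.4 ± 10.6 CPM in WT libraries (SD, n = 5), and Grm2, a presynaptic glutamate autoreceptor, 75 ± 3.02 CPM in DKO and 76 ± 7.07 CPM in WT libraries. Grm2 had 29.9 CPM per kb, among the densest of the group, over a promoter row with 2 bases of its own. These genes were chosen after their values were seen.

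Position on the chromosome moved with these differences. Of the 9 receptor regions on chromosome 6, which carries Rosa26, 8 were below 0, with a median log2 fold change of -0.23 against -0.15 for all 10280 shared regions tested there. Besides Grm8 and Grm7 they include Chrm2, the cardiac muscarinic receptor, at -0.23, and Tacr1 at -0.08. These 4 genes gave 1 region each, and Hrh1 alone gave the other 5, so the 9 regions stand for 5 genes. On chromosome 11 all 4 receptor regions were above 0, at Grm6 (0.25), Galr2 (0.19), Sstr2 (0.17) and Adra1b (0.13), below the median of 0.29 for the shared regions tested there. With an offset for the share of chromosome 11 in each library, Adra1b, Sstr2 and Galr2 had log2 fold changes of -0.11, -0.07 and -0.05. Away from both chromosomes, 45 of 68 tested receptor regions were below 0, with a median of -0.08, and 5 of the 7 calls were there. The same values over all regions off chromosomes 6 and 11 were not computed. Whether this lean is particular to receptor genes was therefore not tested.

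Total H3 gave the amount of histone at the same places. No receptor region was called between the genotypes by edgeR (0 of 68 tested, with 0.0211% called over all regions), 4 had an unadjusted p under 0.05, as did 6.17% of all regions, and DESeq2 called 0. With 2 libraries in each genotype and 117 to 305 H3 counts at the 7 regions above, the test had little reach. At Grm8 total H3 was 155 and 140 CPM in DKO libraries and 164 and 188 CPM in WT libraries, and at Adra1d 65.7 and 65.5 CPM in DKO and 90.9 and 90.8 CPM in WT libraries. At Htr1a it was 84.1 and 88 CPM in DKO and 62.7 and 73 CPM in WT libraries, and at Adra2a 110 and 112 CPM in DKO and 86.5 and 92.8 CPM in WT libraries. Of the 7 regions, total H3 was lower in both DKO than in both WT libraries at 4 (Grm8, Adra1d, Chrm3 and Grm7) and higher in both at 2 (Htr1a and Adra2a). With 2 libraries in each genotype, such an order held at 17.6% of all tested regions in the lower direction and at 17.2% in the higher. Among the 68 tested receptor regions it held at 11 in the lower direction and at 12 in the higher. Why it held at most of the 7 was not tested.

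Set against total H3, receptor regions were strongly marked. H3K27me3 over H3 was higher than the average of all regions at 54 of 85 tested receptor regions and lower at 0 (edgeR, adjusted p under 0.05), where 9.71% of all regions were higher and 0.672% lower. Among shared regions of at least 3000 bp it was 46 of 50 (92.0%), against 70.2% of all such regions. The highest value was at Adra2a, a log2 ratio of 1.92 ± 0.11 (SE), followed by Sstr1 (1.89) and Adra1d (1.86). These ratios are relative to all regions: scaled by library totals, which moves the median of all regions to -0.62 from -0.07, 38 of the 85 receptor regions were higher and 11 lower. Over all 54290 regions tested that way, 2799 were higher and 15986 lower.

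**Figure D4:**
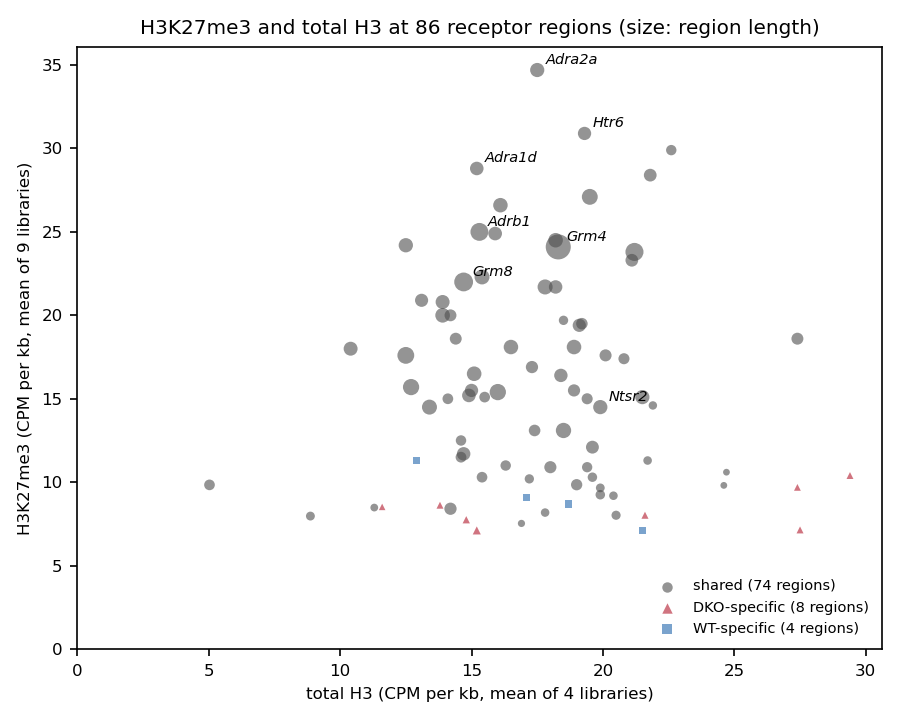
H3K27me3 (mean of 9 libraries) against total H3 (mean of 4 libraries), both in CPM per kb, at the 86 receptor regions, with area growing with region length. The shared regions (grey) reach 34.7 CPM per kb of H3K27me3 at Adra2a, and the DKO-specific (red) and WT-specific (blue) regions are short and lie low.

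The genotype difference net of total H3 was called at 0 of 85 receptor regions by edgeR (0.00184% of all regions were called), with 7 at an unadjusted p under 0.05, against 6.71% of all regions, and 0 called by DESeq2. The lowest p among shared regions was at Htr7, with a log2 difference of -0.80 ± 0.26 (SE) and an adjusted p of 0.507 by edgeR. Adra2a and Htr1a had -0.62 and -0.72, and Adra2b, another alpha-adrenergic receptor, -0.66. At Grm8, where both H3K27me3 and H3 were lower in DKO, the difference was -0.08 ± 0.20 (SE).

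Genes that act with these receptors carried the mark as well. A region lay at 15 of 18 genes of peptide ligands with a row, 12 of 18 of transmitter synthesis and transport, 15 of 20 of G protein subunits, 9 of 9 adenylyl cyclases, 5 of 7 arrestins and receptor kinases and 13 of 15 RGS proteins, which speed the shut-off of G proteins. Of the 58 promoter rows tested in these 6 lists, edgeR called 0 between the genotypes, 9 had an unadjusted p under 0.05, against 10.2% of all rows, and DESeq2 called 0. Of 88 tested regions, 4 were higher in DKO (4.55%, against 2.16% of all tested regions) and 2 lower (2.27%, against 1.88%), with a median log2 fold change of -0.01. H3K27me3 was higher in DKO at Ppy (pancreatic polypeptide, log2 fold change 0.41), Pnmt (adrenaline synthesis, 0.36), Adcy1 (a neuronal adenylyl cyclase, 0.33) and Rgs9 (0.56). All 4 lie on chromosome 11, where tested regions had a median log2 fold change of 0.41 (0.29 for shared regions), and they are 4 of the 9 regions of these lists tested there. It was lower in DKO at a region of Gnas, an imprinted locus that encodes the stimulatory G protein, with a log2 fold change of -0.61. That region averaged 22.2 CPM in DKO and 33.4 CPM in WT libraries, while the promoter row of Gnas averaged 218 CPM in both. The region of Adcy8, another adenylyl cyclase, was lower as well, with -0.36.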

How the data were processed

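H3K27me3 (9 libraries) and total H3 (4 libraries) were read from the raw read counts that the authors deposited. Per the file headers, featureCounts 2.0.3 made the counts, ignoring strand and dropping any read over more than 1 promoter row. Per the submitters' processing notes the build is mm10, and Bowtie2, MACS2 and bedtools are also named, without roles. The files do not state how regions were called. Promoter rows span 3001 bp (2000 upstream, 1000 downstream), and 38 rows (chromosome M and Gm21748, 1.08% of counts) were left out.

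Counts were tested with edgeR 4.0.16 (R 4.3.3; quasi-likelihood F test, two-sided, filterByExpr with minimum count 10, TMM, Benjamini-Hochberg over all rows, threshold 0.05). SE is the fold change over the root of F. DESeq2 1.42.0 was an alternative. A gene is stood for by its row of highest mean CPM. Named are genes called between genotypes, the highest of each family, the 5 highest and 5 lowest fold changes, the 5 longest regions and genes without a region; other genes were picked after their values were seen. Members and lists were chosen with earlier results of these data known. On simulated counts (38353 region and 31631 promoter rows), the test recovered 21.5% of 1.5-fold and 63.8% of 2-fold changes in regions, and 19.7% and 68.7% in promoters. Values of 2 receptor genes are counted in the totals and not reported singly here. Figures used Python 3.11.15 and matplotlib 3.10.9.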

Additional observations from a re-analysis of the deposited data

Results flagged for a closer look

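At the promoter of Drd4, a Gi-coupled dopamine receptor, DKO replicate 1 had 178 CPM, apart from the other 3 DKO libraries at 144 to 146 CPM. At the promoter of Tacr1, DKO replicate 3 had 9.13 CPM, apart from the other 3 at 12.1 to 12.5 CPM. In each case the gap to the nearest library was large against the range of the group by Dixon's test at the 95% level. Chance sets about 1 in 20 groups apart in this way, and 2 such cases came from 64 groups examined.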

How the results depend on the processing

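Of the receptor promoter rows, 0 were called; 1 was called with DESeq2, with library totals, within the libraries named Old or New, with TMM taken off chromosomes 6 and 11, and with the level offset (Galr3 each time), 2 with a term for the library sets (Galr3 and Cnr1), and 0 to 1 when single libraries were left out. Over all promoter rows the settings called 22 to 389. Of the receptor regions 7 were called, beside 1630 of all 40418 regions tested. Within the libraries without Old or New 0 were called (146 of all 38419), and within those with it 2 (692 of all 47039). When WT was limited to replicates 1, 4 and 5, 4 were called (879 of all 44181). A term for the library sets gave 10, 9 lower and 1 higher in DKO (1912 of all 40418). When single libraries were left out 1 to 10 were called, with 623 to 2882 over all regions. The sign turned at the promoter of Tacr3 (0.034 within the libraries named Old or New), at the region of Adra1b (-0.0097 within those without, -0.11 with the chromosome 11 offset) and at those of Sstr2 (-0.073) and Galr2 (-0.049) with that offset. The causes were not tested. The share of genes with a region was 86.1% at an overlap of 500 bp and 87.5% by the highest row. The level by CpG class was not run, since too few genes have a window.

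Same-numbered libraries did not deviate together (correlations of -0.01 to 0.03 in promoters and -0.01 in H3), so the numbers do not pair the libraries. The highest promoter correlations were small and fell on other pairs. They were 0.063 for DKO replicate 2 with WT replicate 1, both without Old or New. DKO replicate 3 with WT replicate 4, both named Old, had 0.057. DKO replicate 4 with WT replicate 5, both named New, had 0.048. The replicate block follows the numbers and not these pairs. With a replicate block 0 promoter rows, 5 regions and 0 H3 regions of receptor genes were called. Over all rows this block called 109 promoter rows, 963 regions and 5 H3 regions. Of simulated 2-fold changes, 27.9% were recovered in total H3 and 3.3% in the difference net of H3.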
